A study of Rattus norvegicus with 2 samples.

Results

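The genes described here encode surface proteins of myeloid cells (macrophages, monocytes, dendritic cells and osteoclasts) and are called surface receptors for short. Among them are receptors that restrain or trigger these cells, and Tyrobp, an adaptor chain. The genes were Ms4a4a, Lilrb4, Trem2, Tyrobp, Sirpa, Cd200r1 and Igsf7 l1. They were measured by 8 of the 26419 sequences on the array, and they made up 7 of 24210 genes. They were picked by name after the contrast between the 2 arrays was known, and their differences in that contrast are therefore a description and not a test. Sequences were found by the symbol in the annotation of the array, where Lilrb4 is listed as Gp49b (glycoprotein 49b), Sirpa as Ptpns1, Cd200r1 as Mox2r, and Igsf7 l1 as a gene similar to Cd300D antigen.

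The cells were rat bone mesenchymal stem cells (BMSCs), adherent cells flushed from the marrow of femur and tibia of Sprague-Dawley rats, and the labels name no transgene or mutant allele. One culture received the solvent DMSO, and the other received icariin, a flavonol glycoside of Epimedium herbs, at 20 µM for 24 h as given in the methods. The sources used here do not state the time of the DMSO culture. The labels give the donors as female and the methods as male, and no source says how many animals were pooled. Each condition had 1 array. Without replicates no SD, standard error or p-value can be given, and no difference could be checked in a second culture. Marrow cells kept by adherence and passaged a few times can still include macrophages, which also adhere.

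Myeloid surface receptors work as pairs of opposites. Activating receptors such as Trem2 have short tails and signal through a partner chain, Tyrobp (DAP12), whose tyrosine motif, known as ITAM, recruits the kinase Syk once a Src-family kinase has phosphorylated it. Inhibitory receptors such as Lilrb4 and Sirpa carry a related motif (ITIM) in their own tails, which recruits the phosphatases Ptpn6 (SHP-1) and Ptpn11 (SHP-2). Cd200r1 also inhibits, through Dok adaptors rather than an ITIM. The Cd300 family holds both kinds within one gene cluster. Ms4a4a belongs to the MS4A family of proteins that cross the membrane several times and is known from macrophages. In bone, Trem2 and Tyrobp are known for their role in osteoclasts, the bone-resorbing relatives of macrophages.

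Values are normalized intensities on a linear scale, and log2 differences are the icariin array minus the DMSO array. Probes of random sequence read 73.8 with DMSO and 78.4 with icariin. To decide how low a value can be read, 1426 olfactory and vomeronasal receptor genes served as a class with no known use in BMSCs. The 95th percentile of this class, called the receptor level, was 148 with DMSO and 168 with icariin. Where only the brighter array exceeded its receptor level, values under 168 were raised to 168 and the ratio is given as "at least". This convention is not a certain bound, since the class itself reached 655 with DMSO and 957 with icariin.

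Of the 7 genes, 4 were at least 2-fold higher on the icariin array and 0 were at least 2-fold lower. The background for such a call was 6.51% of all genes in the higher direction and 7.01% in the lower direction, and 7.15% of the olfactory and vomeronasal receptor genes were likewise at least 2-fold higher. Since the genes were chosen from this contrast, nothing is read from the excess. The 4 genes were Igsf7 l1, Ms4a4a, Lilrb4 and Tyrobp, with measured ratios between 3.52 and 11.1. The other genes, Trem2, Sirpa and Cd200r1, differed by less than 2-fold. The median log2 difference of the 7 genes was 1.81 as measured and 1.53 after values were raised to 168, beside -0.02 and 0 for all genes.

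All 4 of the genes with the larger differences were dim in the DMSO culture. By gene means, only Sirpa exceeded the receptor level with DMSO, and on the icariin array 6 of the 7 genes did. Thus 5 genes passed it on the icariin array alone, a pattern that 5.7% of all genes had. Among genes with that pattern a measured ratio of 2 or more is common (55.1%), because the pattern itself favours it. After values were raised to 168, the same 4 genes were still at least 2-fold higher, against 1.48% of all genes and 6.81% of the genes with that pattern. The summed intensity of the 7 genes went from 1217 to 3570.

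**Figure D1:**
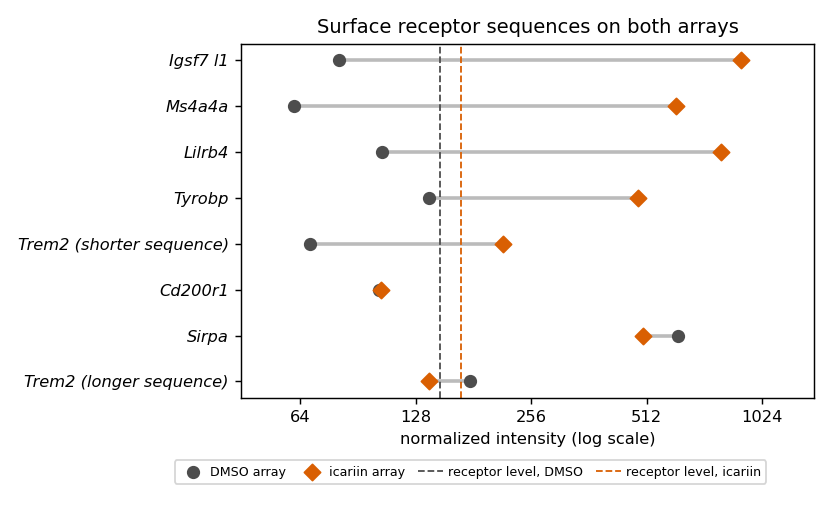
Normalized intensity (log axis) of the 8 sequences of the 7 receptor genes on the DMSO array (grey circles) and the icariin array (orange diamonds), ordered by their measured difference, with dashed lines at the receptor level of each array. Only Sirpa lies right of both lines on both arrays, Cd200r1 lies left of both, and the 2 Trem2 sequences move in opposite directions.

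**Figure D2:**
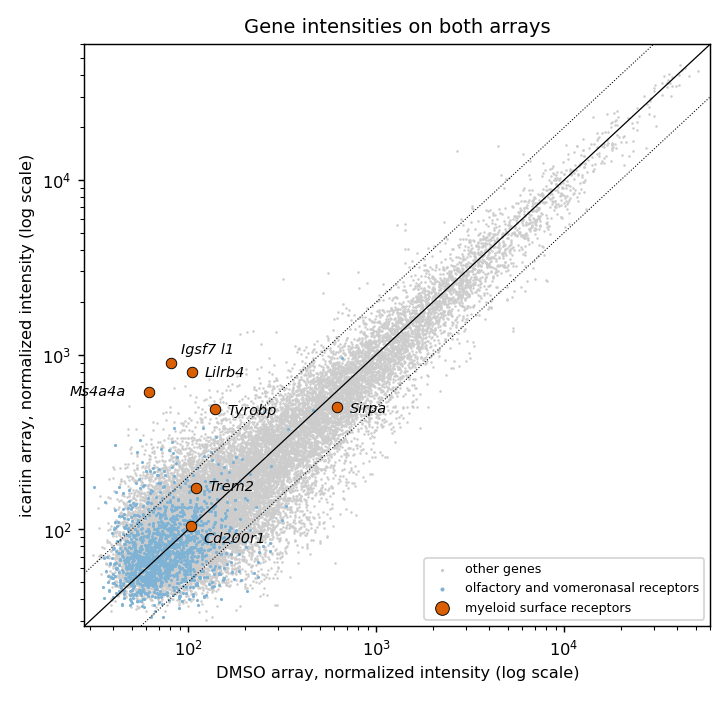
Normalized intensity of each gene on the DMSO array (x, log axis) and on the icariin array (y, log axis), with equality as a solid line and 2-fold differences as dotted lines. The receptor genes described here are orange, the 1426 olfactory and vomeronasal receptor genes blue and all other genes grey. Igsf7 l1, Ms4a4a, Lilrb4 and Tyrobp stand above the upper dotted line, over the part of the DMSO axis where the blue genes lie.

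The promoter sequences of 3 of the 7 genes were at hand. They are shown because Ms4a4a and Lilrb4 were much higher on the icariin array while the gene mean of Trem2 was not. They are the 250 bases before the start of each gene in RefSeq (build GRCr8), written from 5′ to 3′ on the strand of the gene. Capitals mark GAGGAA, the core of the site bound by PU.1, the ETS-family factor of myeloid cells, or its reverse complement TTCCTC. The windows are chr1:217495454-217495703 on the plus strand for Ms4a4a, chr1:78853253-78853502 on the minus strand for Lilrb4, and chr9:20151780-20152029 on the minus strand for Trem2.
Ms4a4a: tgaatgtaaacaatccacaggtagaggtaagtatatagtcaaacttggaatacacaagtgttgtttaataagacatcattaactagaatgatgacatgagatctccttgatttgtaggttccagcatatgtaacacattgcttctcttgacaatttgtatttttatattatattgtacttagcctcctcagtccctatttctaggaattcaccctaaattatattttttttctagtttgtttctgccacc
Lilrb4: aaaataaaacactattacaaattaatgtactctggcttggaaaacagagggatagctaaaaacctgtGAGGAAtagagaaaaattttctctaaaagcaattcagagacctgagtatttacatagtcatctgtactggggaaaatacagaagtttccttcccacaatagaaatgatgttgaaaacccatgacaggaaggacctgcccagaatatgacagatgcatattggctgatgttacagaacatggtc
Trem2: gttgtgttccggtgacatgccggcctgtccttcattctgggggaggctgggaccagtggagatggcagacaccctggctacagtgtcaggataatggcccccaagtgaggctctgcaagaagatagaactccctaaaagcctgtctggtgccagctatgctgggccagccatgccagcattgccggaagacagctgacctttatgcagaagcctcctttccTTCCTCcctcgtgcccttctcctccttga

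Lilrb4 held GAGGAA once, beginning 183 bases before its start. Trem2 held the reverse complement once, 29 bases before its start. Ms4a4a held 0 copies in this window. The motif was searched on both strands, and 7812 of 33469 windows of this length (23.3%) held it, so a match in 2 of 3 windows describes these letters and no more. No binding was measured here.

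Among the activating chains, Tyrobp was higher after icariin. Tyrobp is the signalling adaptor that Trem2 and several other activating receptors share. Its intensity was 138 on the DMSO array, just under the receptor level of 148, and 487 on the icariin array, so the ratio was at least 2.89 (measured log2 difference 1.81). On the icariin array 1 of the 1426 olfactory and vomeronasal receptor genes was at least as bright as Tyrobp, and on the DMSO array 91 were.

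Trem2, the receptor for lipids and apolipoproteins that Tyrobp serves, gave no clear difference. Its gene mean was 110 with DMSO and 173 with icariin, which is hardly over the level of 168 (at least 1.03-fold higher). The mean hides 2 sequences that pointed in opposite directions. The shorter gene model read 68.0 with DMSO and 216 with icariin, a log2 difference of 1.67 (at least 1.28-fold higher). The longer gene model read 177 and 139, a log2 difference of -0.35 (at least 1.05-fold lower). Each sequence passed the receptor level on 1 array only, and not on the same one. Neither reached the 99th percentile of the olfactory and vomeronasal receptor genes, which was 221 with DMSO and 270 with icariin.

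Sequences of one gene often disagreed on these arrays, though rarely by this much. Over the 1792 genes with 2 sequences, the log2 differences of both lay a median of 0.53 apart and had opposite signs in 42.2%. The gap of Trem2 was 2.02, and 51 of those genes (2.85%) had a gap at least as large. In the 395 genes whose sequences were above the receptor level on both arrays, the median gap was 0.36 and opposite signs occurred in 31.1%. The other 6 receptor genes rested on 1 sequence of 5 probes each and had no second sequence to be set against.

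**Figure D3:**
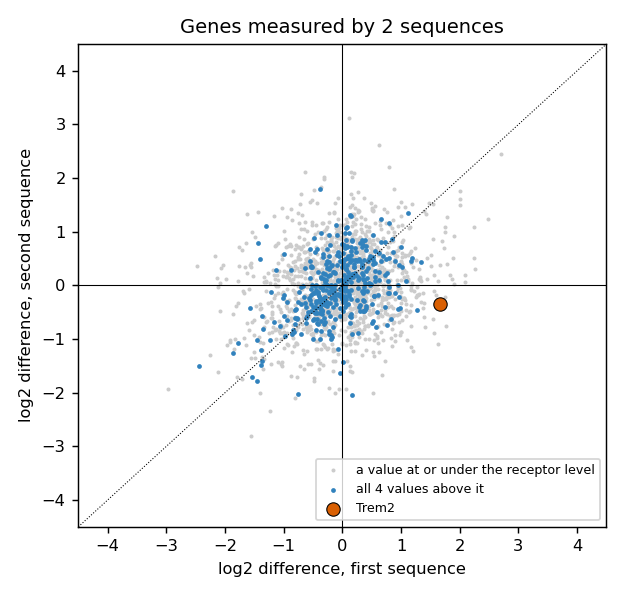
Log2 difference (icariin minus DMSO) of the first (x) and second (y) sequence of each of the 1792 genes measured by 2 sequences, in blue where all 4 values were above the receptor level and grey otherwise, with the dotted line at equality. Trem2 (orange, at 1.67 and -0.35) lies in the quadrant of opposite signs, far from the dotted line.

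Other activating receptors and adaptors mostly stayed dim. Of the 23 measured on the array, 4 were higher and 1 lower by at least 2-fold, and 14 were above the receptor level on neither array. Besides Tyrobp, the higher genes were Pilrb1, Treml4 and Hcst. Pilrb1, a receptor that also uses Tyrobp, read 93.0 and 234 (at least 1.39-fold). Treml4, a relative of Trem2, read 72.5 and 199.7 (at least 1.19-fold). Hcst (DAP10), another signalling adaptor, read 55.9 and 116, below the receptor level on both arrays. After values were raised to 168, Tyrobp was the 1 gene of the 23 that was still at least 2-fold higher. Trem1, which amplifies inflammation through Tyrobp, had gene means of 197 and 215, from sequences that disagreed (228 and 181 for the first, 169 and 254 for the second). The lower gene, Ncr3, an activating receptor of natural killer cells, read 151 and 50.4, and since 151 is under 168 no ratio was left after values were raised.

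Among the inhibitory receptors, Lilrb4 was much higher after icariin, whereas Sirpa and Cd200r1 were not. Lilrb4 carries ITIMs, and in mouse it binds the integrin αvβ3. Its intensity was 105 with DMSO and 797 with icariin, so the ratio was at least 4.73 (measured log2 difference 2.93). Sirpa, the receptor for the "do not eat me" signal Cd47, read 619 and 500.1, a log2 difference of -0.31 (1.24-fold lower). Of the genes that, like Sirpa, passed the receptor level on each array, 2.97% were higher and 4.39% lower by at least 2-fold. Sirpa was the only one of the 7 genes that was bright in DMSO-treated BMSCs, and it is known from other cell types besides macrophages. Cd200r1, the receptor for Cd200, read 103 and 104, under the receptor level on both arrays, and its log2 difference of 0.02 is one between dim values.

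Of the 29 inhibitory receptors measured, 6 were higher and 2 lower by at least 2-fold, with a median log2 difference of 0.37, and 16 were above the receptor level on neither array. Raising values to 168 left 3 higher, which were Lilrb4, Cd300a and Pirb. Pirb, the receptor for class I major histocompatibility molecules on mouse myeloid cells and a relative of Lilrb4, read 100.1 and 409 (at least 2.43-fold). Lilrb3, from the same family, read 85.4 and 88.9, below the receptor level on both arrays. Over the 17 measured genes of the SIRP, CD200R, TREM and LILR families, with their ligands and relatives, 2 were at least 2-fold higher (Lilrb4 and Treml4) and 0 lower. Tigit, an inhibitory receptor of T and natural killer cells, read 55.7 and 206 (at least 1.22-fold). The most strongly lower gene of the list was Pecam1, an ITIM-bearing adhesion molecule of endothelium and leukocytes, with 269 and 52.8 (at least 1.6-fold lower).

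Igsf7 l1 was much higher after icariin. It read 80.7 on the DMSO array, near the random probes, and 899 on the icariin array, so the ratio was at least 5.34 (measured log2 difference 3.48). Its neighbour on chromosome 10, Igsf7, is separated from it only by a pseudogene and was also higher, from 245 to 1158, a ratio of 4.72 with both arrays above the receptor level. Cd300a, an inhibitory receptor for exposed phospholipids at one end of the cluster, read 109 and 471 (at least 2.8-fold). At the other end Cd300lf, also inhibitory, read 106 and 157 and passed the receptor level on neither array.

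Of the 8 measured genes of the Cd300 and Igsf7 family, 3 were at least 2-fold higher and 0 lower, both as measured and after values were raised to 168. The shares of all genes that were at least 2-fold higher were 6.51% and 1.48%. The other 5 differed by less than 2-fold, and only Cd300lg (134 and 189) of these passed the receptor level, on the icariin array. Igsf7 and Igsf7 l1 are related genes. Because the probe sequences were not analysed here, signal shared between them cannot be told apart from signal of each.

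Ms4a4a was also much higher, with 61.6 on the DMSO array, below the random probes, and 610.0 on the icariin array. The ratio was at least 3.62 (measured log2 difference 3.31, set by the dim DMSO value). On the DMSO array 980 of the 1426 olfactory and vomeronasal receptor genes were at least as bright as Ms4a4a, and on the icariin array 1 was. Of 17 MS4A genes measured, all in 1 cluster on chromosome 1, 4 were higher and 1 lower by at least 2-fold, with a median log2 difference of 0.06, and 12 were above the receptor level on neither array. Raising values to 168 left Ms4a4a as the 1 gene still at least 2-fold higher.

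Its relatives nearby gave mixed values. Ms4a6b read 87.9 and 238 (at least 1.41-fold) and Ms4a6bl1 read 88.2 and 248 (at least 1.47-fold), but these are close copies and may share signal. Ms4a6c, which passed the receptor level on both arrays, had gene means of 680 and 614 from sequences that disagreed (2254 and 1457 for the first, 205 and 258 for the second). Ms4a15, near one end of the cluster, read 182 and 64.5 (at least 1.08-fold lower). Ms4a1 (CD20), the B cell marker of the family, read 68.1 and 61.5, below the receptor level on both arrays.

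**Figure D4:**
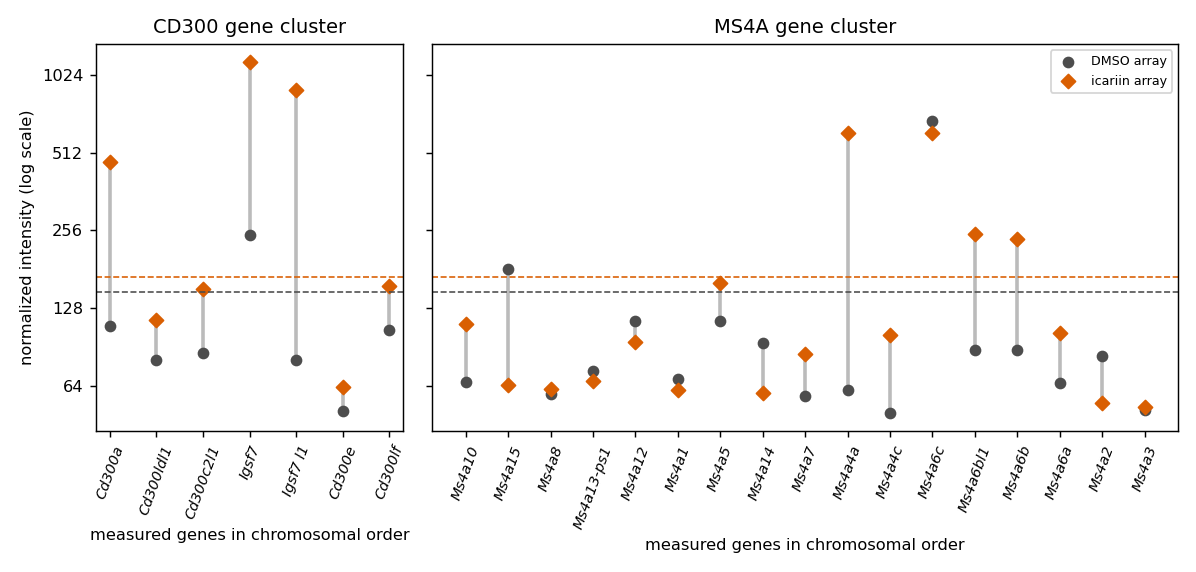
Normalized intensity (log axis) on the DMSO array (grey circles) and the icariin array (orange diamonds) of the 7 measured genes of the CD300 cluster (left) and the 17 of the MS4A cluster (right), in chromosomal order, with dashed lines at the receptor levels. Cd300a, Igsf7 and Igsf7 l1 stand out on the left. On the right Ms4a4a has the largest difference, Ms4a6c lies above the lines on both arrays, and most other genes lie below the lines.

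All 7 genes were placed in the order of log2 differences, but only Sirpa had a difference measured above the receptor level on both arrays. Sirpa lay between Tcf12, a transcription factor, and Pgap6, both at -0.31 as well. Dim values set the places of the other genes. Lilrb4 lay between Cryaa (83.9 and 646) and Clps (52.6 and 375), both under the receptor level with DMSO. Tyrobp lay between Tmem144 (80.2 and 283) and Ebi3 (154 and 540), and Igsf7 l1 and Ms4a4a had Lyz2 next below them. Likeness here is the gap in log2 difference over 2 arrays and nothing more.

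The ligands of the receptors were mostly bright on both arrays. Of 20 measured, 2 were at least 2-fold higher, 1 was at least 2-fold lower and 5 were above the receptor level on neither array. The list includes Plxna1, 1 of the 2 higher genes, which is a partner of these receptors rather than a ligand. The higher count was 4 when differences were rescaled by a loess on level or centred on the median of the brighter genes, since Apoe and C4b, a complement component (1033 and 2063), lay just under 2-fold. Cd47, the ligand of Sirpa, read 1023 and 1129, a ratio of 1.1. Cd200, the ligand of Cd200r1, read 231 and 397 (1.72-fold), and its relative Cd200l1 read 195 and 263 (1.35-fold). Apoe, an apolipoprotein bound by Trem2, was among the bright genes, with 6568 and 12836 (1.95-fold). C1qa, a chain of complement C1q, was higher, with 222 and 1373 (6.19-fold), as was Plxna1, a semaphorin receptor that pairs with Trem2 and Tyrobp, with 246 and 498 (2.02-fold). The lower gene was Itgb3, which encodes the β3 chain of αvβ3, with 367 and 113 (at least 2.18-fold lower).

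Behind the receptors lie kinases, phosphatases and adaptors that bind, modify or act downstream of ITAM and ITIM motifs. Of 34 measured, 8 were higher by at least 2-fold and 0 lower, with a median log2 difference of 0.17. After values were raised to 168, 2 of the 34 were still at least 2-fold higher. One of these was Syk, the kinase that the ITAM of Tyrobp recruits, which read 206 and 519 (2.52-fold) and passed the receptor level on both arrays. Lyn, a Src-family kinase, read 50.8 and 239 (at least 1.42-fold), and Pik3ap1, an adaptor of phosphoinositide 3-kinase, 112 and 326 (at least 1.94-fold).

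On the inhibitory side, the phosphatases of the ITIM pathway did not share a direction. Ptpn6, the SHP-1 of blood cells, read 155 and 293 (1.89-fold higher). Ptpn11, the SHP-2 of nearly all cells, read 277 and 208 (1.34-fold lower). Inpp5d, the lipid phosphatase SHIP-1 of blood cells, read 110 and 174 (at least 1.03-fold higher). None of these reached 2-fold.

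Part of the macrophage markers were higher on the icariin array as well. Of 23 macrophage and monocyte markers, 12 were at least 2-fold higher, 0 lower and 5 above the receptor level on neither array (Ccr2, Cd163, Fcgr1a, Fcgr3a and Marco). Their median log2 difference was 1.1 as measured and 0.57 after values were raised to 168, with 8 of them still at least 2-fold higher, and their summed intensity went from 7490 to 21449. Cd68, a lysosomal protein of macrophages, read 1423 and 5597 (3.93-fold), Lyz2 read 318 and 2727 (8.58-fold), and C1qc read 520.2 and 2250 (4.33-fold). Csf1r, the growth factor receptor of macrophages, read 726 and 1078 (1.49-fold), and Adgre1 (F4/80) 197 and 354 (1.8-fold). Of the 23, 11 passed the receptor level on both arrays, among them Cd68 and Csf1r. Others, such as Itgam (102) and Ncf4 (68.2), were under it with DMSO, as were 6 of the 7 surface receptors.

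Of 15 markers of leukocytes in general, 8 were at least 2-fold higher, 0 lower and 4 above the receptor level on neither array (Cd52, Dock2, Ikzf1 and Vav1), and their sum went from 2609 to 5207. Ptprc (CD45), the defining one, read 91.9 and 192 (at least 1.14-fold), and Cd53 read 243 and 849 (3.5-fold). Neutrophil, T and natural killer cell, and B cell markers were above the receptor level on neither array for 8 of 13, 9 of 15 and 6 of 9 genes, and 2, 4 and 1 of them were at least 2-fold higher as measured. After values were raised to 168, these counts were 0, 1 and 0. Of 9 osteoclast markers, 1 was higher by that ratio (Acp5, the tartrate-resistant phosphatase, 456 and 1035) and 1 lower (Itgb3). Of 10 erythroid genes, 4 were at least 2-fold lower as measured and 2 after values were raised to 168, and 4 were higher by less than 2-fold. Their sum went from 6779.5 to 3615. The part of other cells in the receptor values was not tested. In cultures measured in bulk, more or fewer cells of a type and more or less RNA per cell cannot be told apart. This holds for the higher receptor genes as well.

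Most of the markers that define stromal cells were bright on both arrays. Of the 18 measured, 17 differed by less than 2-fold, and their sum was 144955 with DMSO and 162063 with icariin. Col1a1, the main collagen of bone, read 33820 and 39096 (1.16-fold higher), and Thy1 (CD90) read 20616 and 17702 (1.16-fold lower). Vcam1 was the exception, with 401 and 79.6 (at least 2.38-fold lower). Eng read 185 and 232, above the receptor level but under the 99th percentile of the olfactory and vomeronasal receptor genes on both arrays. Lepr was above the receptor level on neither array.

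**Figure D5:**
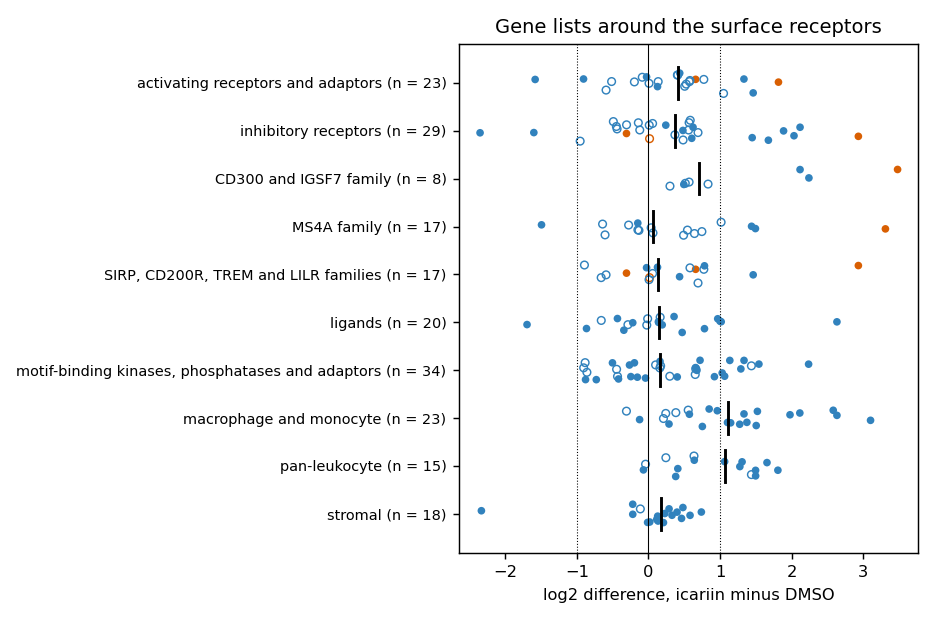
Log2 difference (icariin minus DMSO) of each measured gene in 10 gene lists, with the number of genes in brackets, the list median as a black bar and 2-fold differences as dotted lines. Open circles are genes above the receptor level on neither array, and orange marks the receptor genes described here. The medians of the macrophage (1.1) and leukocyte (1.06) lists lie past 2-fold as measured, but at 0.57 and 0.26 after values were raised to 168, and those of the receptor families lie at 0.7 or less as measured.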

How the data were processed

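Total RNA of 1 DMSO-treated and 1 icariin-treated culture was labelled with Cy3 and hybridized to Roche NimbleGen rat expression arrays. The deposited intensity values had been made by the authors by quantile normalization and RMA in NimbleScan (version not given in the sources used here), on a linear scale. Such normalization gives both arrays 1 distribution, so a change of most transcripts in 1 direction would not be seen. Per the file headers, a count column gives the number of probes of each sequence, which was 5 for 99.8% of sequences. A standard error column of unstated scale was not used, nor were fold changes that the authors supplied.

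Names came from the RefSeq gene table of GRCr8 (20681 by gene identifier, 31 by accession, 5707 by the symbol of the file), and log2 values of the sequences of a gene were averaged. The genes of interest, the gene lists and all rules were chosen with earlier results of these data known, and names in the lists that matched another gene were taken out once the annotation was seen. A call was a ratio of at least 2, since the methods filter on fold change. The text names the 7 genes, up to 4 more from every list (by size of difference, among those above the receptor level), a set of partners, ligands and markers listed by name, and the nearest genes in the order of differences. Ms4a1, Vav1, Eng and the list members named only as dim lie outside that rule and were chosen after their values were seen. Fcer1g and Sirpb, on that set, were not matched. The scripts were tested on simulated data and ran in Python 3.11.15 with pandas 2.3.3, NumPy 2.4.6 and statsmodels 0.14.6. With 2 arrays, their number limits the precision.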

Additional observations from a re-analysis of the deposited data

How the results depend on the processing

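For each of the 7 genes, 7 alternatives were tried, and none of the 49 values changed its side of a 2-fold difference. They used the deposited value table, a loess on level (span 0.3), centring on the median of genes above the receptor level, the brightest or the lowest-difference sequence of a gene, 64 added to both values, and values raised to the receptor level. Some of these could not move a gene. The choice of sequence left the 6 genes with 1 sequence as they were, and the value table repeated the main differences. The log2 difference ranged from 2.42 to 3.54 for Igsf7 l1, from 1.86 to 3.36 for Ms4a4a, from 2.24 to 2.99 for Lilrb4 and from 1.44 to 1.87 for Tyrobp. That of Sirpa stayed between -0.31 and -0.22, and that of Cd200r1 between -0.03 and 0.06. That of Trem2 lay between -0.35, where its longer sequence stood for the gene, and 0.71, for the centred mean of both sequences. The shorter sequence alone, at 1.67, was not among the alternatives and would have passed 2-fold. The number of the 7 genes at least 2-fold higher was 4 in each alternative. It was 5 at a fold of 1.5, with Trem2 added, and 4 at a fold of 3. At these folds, 3974 and 357 of all 24210 genes were higher. Over all genes, 1577 were at least 2-fold higher as measured, 542 after adding 64 and 358 after raising values to the receptor level, and for lower genes the numbers were 1697, 686 and 597.

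The same alternatives were applied to the lists after the data had been seen. The count of at least 2-fold higher genes went from 8 to 13 for macrophages, from 4 to 8 for leukocytes, from 3 to 6 for inhibitory receptors, from 1 to 4 for activating receptors, from 1 to 4 for the MS4A family, from 2 to 8 for the kinases and adaptors, from 1 to 4 for the ligands and for T and natural killer cells, and from 0 to 2 for neutrophils and for B cells, and it was 3 throughout for the Cd300 and Igsf7 family. The count of at least 2-fold lower erythroid genes was 4 as measured, 1 after adding 64 and 2 with the loess, the centring or raised values. The median log2 difference ranged from 0.57 to 1.15 for macrophages and from 0.26 to 1.17 for leukocytes. With the 99th percentile as receptor level, or with 48 testis, oocyte and defensin genes in place of the olfactory and vomeronasal receptors, 5 of the 7 genes passed it on the icariin array and 1 on both arrays. No paired analysis was possible because each condition had 1 array, and for the same reason no array could be left out. Dim values limit the ratios of 6 of the 7 genes.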
